A study of Mus musculus with 27 samples.

Results

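The genes of collagen crosslinking and processing were followed through the mouse model of oxygen-induced retinopathy (OIR). They are a set of 10 symbols listed by name, with earlier results of these data known, namely Lox, Loxl1, Loxl2, Loxl3, Loxl4, Plod1, Plod2, Plod3, Pcolce and Serpinh1, out of 40129 genes in the deposited table. All 10 were found in the table, all 10 passed the filter on low values that left 27137 genes for testing, and none was at 0 in any mouse. At p17, 9 of the 10 genes were higher in OIR retinas than in controls, where 7.39% of all genes tested were, and at p14 there were 4, where 3.18% were. Pcolce stood out at both ages, with 2430 ± 1240 normalized reads in OIR retinas against 83.5 ± 16.4 in controls at p14 (mean ± SD, n = 6 and 6).

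The study sequenced RNA of whole retinas from C57BL/6 WT mice, given as C57BL/6J in the paper. OIR pups were kept in high oxygen, which makes the growing retinal vessels regress, and were then returned to room air, where the poorly perfused retina becomes ischemic and new vessels sprout. Controls (nOIR) stayed in room air throughout and had no other treatment, and no group carried an altered allele. The groups compared here are nOIR p14 (6 mice), OIR p14 (6 mice), nOIR p17 (6 mice) and OIR p17 (8 mice), with 1 library per mouse made from a single retina or both. Age in days after birth is written as p14, the ischemic stage, and p17, the neovascular stage.

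Recovered totals ranged from 17029536 to 33593428 reads in 27 mice. Of these, nOIR p14 mouse S4 was left out because the study excluded it for its lens genes. For Cryaa, a lens gene that the paper names, S4 had 6142 normalized reads. The nOIR p14 mice kept had between 0 and 6771, so S4 was not the highest for this gene. Among the mice kept, the summed level of 5 lens genes still ranged from 33.7 to 27393 normalized reads, and none of the 5 was called at either age. Neuronal markers, which define the tissue, summed to between 362133 and 688653 normalized reads in each mouse. At p14 this sum was lower in every OIR mouse (362133 to 432136) than in any control kept (469485 to 598993). At p17 the ranges overlapped, with 435415 to 681336 in OIR mice and 518110 to 688653 in controls. The paper reports fewer litters than mice in every group, so some mice of a group were littermates. The litter of each mouse is not in the sample labels and was not modelled. The p-values therefore treat mice as independent and measure the spread between these mice.

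Collagen is built in a fixed order, and the 10 genes act at separate steps of it. Inside the endoplasmic reticulum, prolyl and lysyl hydroxylases modify the growing chains, and the chaperone encoded by Serpinh1 holds the folded procollagen helix until it leaves for the Golgi. The lysyl hydroxylases are encoded by Plod1, Plod2 and Plod3. Outside the cell, proteinases such as that of Bmp1 cut off the propeptides, and the protein of Pcolce binds the C-terminal propeptide and speeds its removal. The lysyl oxidases, copper enzymes encoded by Lox and Loxl1 to Loxl4, then oxidise lysines and hydroxylysines, and the resulting aldehydes form the covalent crosslinks that make fibres and basement membranes stiff and insoluble. In the retina, collagen lies mainly in vessel walls and the inner limiting membrane, and fibrous membranes that contract are a late feature of proliferative retinopathy.

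For 5 of the 10 genes (Plod1, Plod3, Pcolce, Serpinh1 and Loxl4) a promoter window from RefSeq, build GRCm38.p6, was searched. Each window had 300 bases, 250 before the annotated start site and 50 after. The other genes, Lox among them, were not searched, so the motif counts do not cover them. The windows of Pcolce and Serpinh1 are shown because these genes had the largest OIR effects at p17, and that of Plod3 because it had the smallest among the genes that rose. All are written 5′ to 3′ on the strand of the gene, with capitals for the core of the hypoxia response element (ACGTG, or CACGT on the other strand).
Pcolce, chr5:137611355-137611654, minus strand: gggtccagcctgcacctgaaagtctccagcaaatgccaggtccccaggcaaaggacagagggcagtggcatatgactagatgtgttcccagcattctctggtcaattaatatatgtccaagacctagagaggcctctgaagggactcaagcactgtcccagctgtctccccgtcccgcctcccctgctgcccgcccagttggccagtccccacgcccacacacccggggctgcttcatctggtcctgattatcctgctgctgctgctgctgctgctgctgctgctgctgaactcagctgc
Serpinh1, chr7:99353190-99353489, minus strand: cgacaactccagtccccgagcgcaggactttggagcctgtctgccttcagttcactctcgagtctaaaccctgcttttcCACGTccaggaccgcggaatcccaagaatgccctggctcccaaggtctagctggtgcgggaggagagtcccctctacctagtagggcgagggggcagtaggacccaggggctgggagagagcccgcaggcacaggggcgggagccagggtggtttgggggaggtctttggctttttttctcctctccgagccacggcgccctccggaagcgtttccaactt
Plod3, chr5:136986769-136987068, plus strand: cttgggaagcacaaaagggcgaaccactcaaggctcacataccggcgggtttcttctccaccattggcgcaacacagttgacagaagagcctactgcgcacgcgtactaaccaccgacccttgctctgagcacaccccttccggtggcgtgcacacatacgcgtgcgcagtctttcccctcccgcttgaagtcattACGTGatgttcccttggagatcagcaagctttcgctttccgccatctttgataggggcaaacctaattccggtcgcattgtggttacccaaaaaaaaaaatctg

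The core occurred once in the Serpinh1 window, at position -171 from the start site, and once in that of Plod3, at -54. It did not occur in the windows of Pcolce, Plod1 or Loxl4. Of all 32851 promoter windows of this length, 19.6% held it. The heat shock pair GAANNTTC, searched on both strands, was found in the window of Plod1, at position 42, and in 7.86% of all windows. The STAT pair TTCNNNGAA occurred in none of the 5 windows and in 8.3% of all. The GC box GGGCGG occurred in 4 of the 5 windows, all but that of Plod3, and in 35.7% of all. No match to a motif overlapped a match to another in these windows. A match is a string of letters and says nothing of binding.

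To ask how abundant each gene was, levels were divided by exon length from GENCODE M21 (GRCm38), an older annotation than the one the reads were counted on. In nOIR p14 retinas Serpinh1 had the highest level, 467.6 normalized reads per kb, followed by Plod1 at 171, Plod3 at 129, Plod2 at 67.2 and Loxl4 at 61.6. The remaining lysyl oxidases and Pcolce lay lower, from 33.1 per kb for Loxl1 down to 11.9 for Lox. Plod2 and Loxl4 overlapped over mice, as did each neighbouring pair from Loxl1 down to Lox, so their order is not firm. In OIR p14 retinas, Pcolce moved from the eighth place to the top with a mean of 636 per kb, and its range overlapped that of Serpinh1, at 613. In OIR p17 retinas Serpinh1 led with 1426 per kb, above every mouse's level of any other of the 10 genes, and Pcolce followed with 466.7. Lox remained the lowest of the 10 by mean in every group, at 18.4 per kb in OIR p17.

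**Figure D1:**
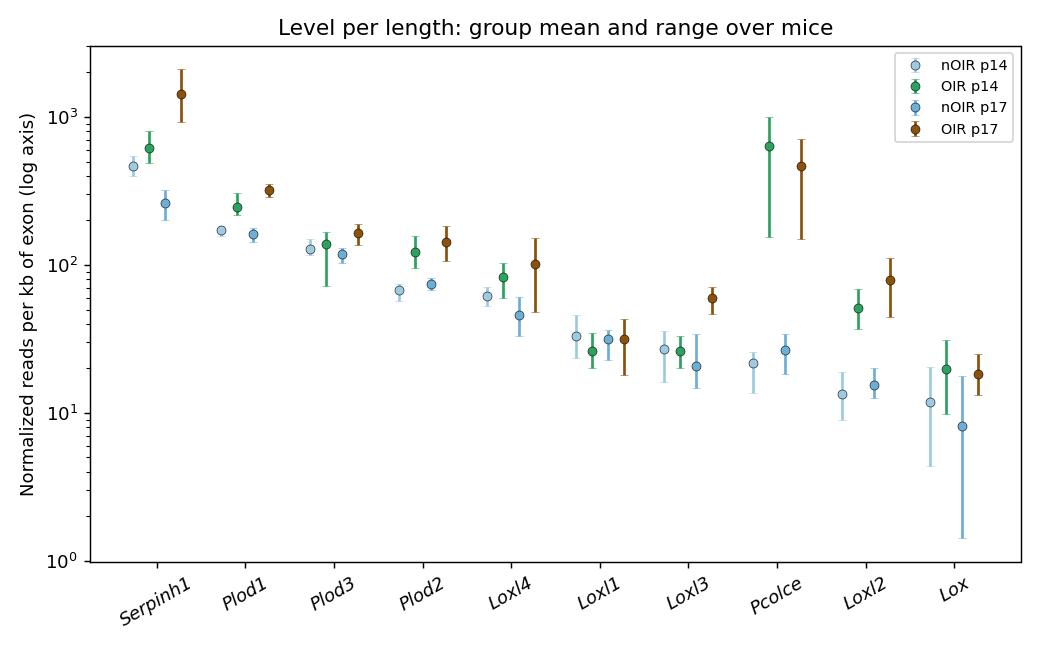
Level of each gene per length in the 4 groups. The vertical axis is normalized reads per kb of exon on a log scale, points are group means and bars run from the lowest to the highest mouse (n = 6, 6, 6 and 8). Pcolce lies among the low genes in controls, at 21.8 per kb in nOIR p14, and among the highest in OIR mice, at 636 per kb in OIR p14.

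Pcolce, which acts on procollagen as it is trimmed, showed the largest effect of the 10 genes at both ages. Pcolce had between 52.4 and 99.4 normalized reads in nOIR p14 mice (median 87.2) and between 594 and 3800 in OIR p14 mice (median 2716). At p17 the controls lay between 70.3 and 130 (median 103) and the OIR mice between 572 and 2723 (median 1805). The lowest OIR mouse was above the highest control at both ages, but OIR mice differed widely among themselves, with S2 at p14 and S1 at p17 the lowest. The log2 fold change was 4.63 (SE 0.36, adjusted p = 1.02e-09, limma with Benjamini-Hochberg adjustment) at p14 and 3.98 (SE 0.33, adjusted p = 3.82e-10) at p17. By size of log2 fold change Pcolce ranked 10 of the 27137 genes at p14 and 55 at p17. The effects at the 2 ages did not differ beyond the spread, with a difference of -0.65 (p17 minus p14, SE 0.49, adjusted p = 0.688).

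Serpinh1, the collagen chaperone, changed later. It had between 970 and 1330 normalized reads in nOIR p14 mice (median 1145) and between 1198 and 1962 in OIR p14 mice (median 1426). Of these OIR mice, 3 of 6 lay above all controls and the others within their range. At p17 the controls had fallen to between 489 and 784 (median 626), and OIR mice had between 2254 and 5127 (median 3386), so that the groups were far apart. The log2 fold change was 0.38 (SE 0.17, adjusted p = 0.244) at p14 and 2.39 (SE 0.16, adjusted p = 4.30e-12) at p17 in limma with Benjamini-Hochberg adjustment. The difference between these effects was 2.02 (SE 0.23, adjusted p = 3.03e-06), which ranked 16 by p among all genes. It was made of a rise within OIR mice, by 1.18 from p14 to p17 (SE 0.16, adjusted p = 1.18e-05), and of a lower level in older controls, where the log2 change was -0.84 (SE 0.17, adjusted p = 0.0175). The change in controls kept nearly its size but missed the threshold when single mice were left out. It was -0.80 (adjusted p = 0.0701) without nOIR p14 mouse S3, -0.77 (adjusted p = 0.0599) without nOIR p17 mouse S1 and -0.82 (adjusted p = 0.054) without nOIR p17 mouse S4.

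**Figure D2:**
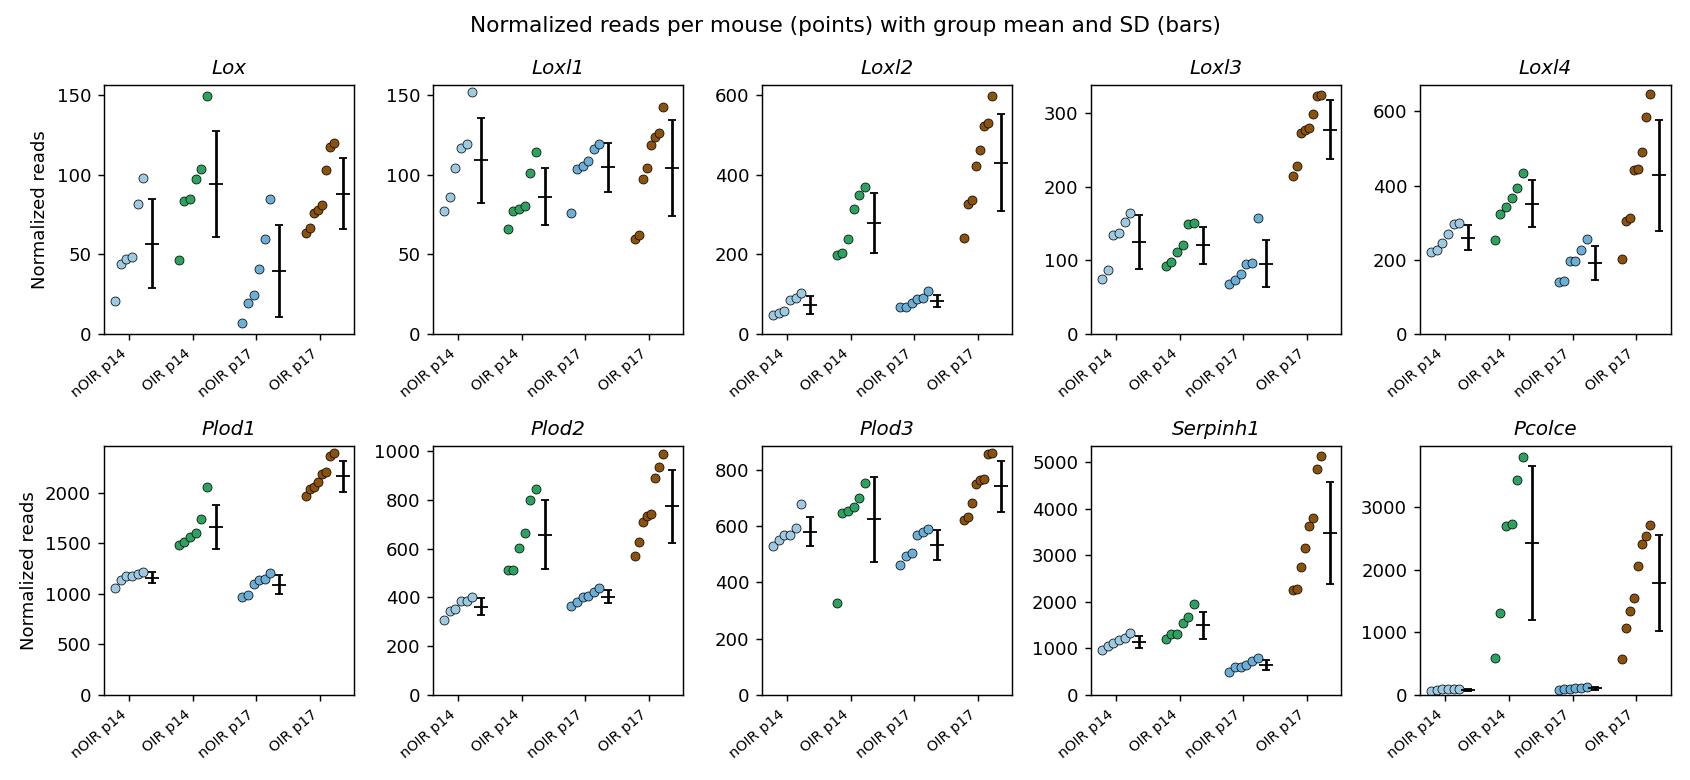
Normalized reads of the 10 genes in each of the 26 mice. Each panel has a linear axis from 0, points are mice sorted by value within a group, and the bar beside them is the mean with its SD. The OIR mice lie above all controls of their age for Loxl2, Plod1, Plod2 and Pcolce at p14, and for these and Loxl3, Plod3 and Serpinh1 at p17.

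Among the lysyl oxidases, Loxl2 was the only one to rise at both ages. Its product oxidises lysines of basement membrane collagen IV, and it is a known target of hypoxia-inducible factor. Loxl2 had between 48.1 and 102 normalized reads in nOIR p14 mice (median 70.9) and between 200 and 369 in OIR p14 mice (median 276). At p17 it had between 68.5 and 108 in controls (median 83.2) and between 241 and 598 in OIR mice (median 443). No OIR mouse overlapped a control at either age. The log2 fold change was 1.95 (SE 0.22, adjusted p = 7.21e-07, limma with Benjamini-Hochberg adjustment) at p14 and 2.31 (SE 0.21, adjusted p = 1.86e-09) at p17. The 2 effects differed by 0.36 (SE 0.31, adjusted p = 0.73). Within OIR mice the change from p14 to p17 was 0.61 (SE 0.21, adjusted p = 0.085), and without OIR p17 mouse S4, the lowest of its group, it was 0.72 (adjusted p = 0.0263).

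Loxl3 rose at p17 alone, and the difference between the ages was itself past the threshold. At p14 it had between 74.3 and 165 normalized reads in controls (median 135) and between 92.2 and 151 in OIR mice (median 116), a range inside that of the controls. At p17 controls had between 68.2 and 157 (median 88.4) and OIR mice between 214 and 325 (median 278), without overlap. Log2 fold changes were -0.02 (SE 0.21, adjusted p = 0.983, limma with Benjamini-Hochberg adjustment) at p14 and 1.57 (SE 0.19, adjusted p = 4.37e-07) at p17. The effect at p17 exceeded that at p14 by 1.59 (SE 0.28, adjusted p = 0.00115), and OIR mice at p17 were above OIR mice at p14 by 1.21 (SE 0.19, adjusted p = 0.00011). In GENCODE M21, 535 bases, 11.6% of the exon bases of Loxl3, are shared with Htra2 on the other strand, and the library kit does not keep the strand, so reads there cannot be assigned to one gene.

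Lox, the founding member of the family and a crosslinker of collagen and elastin fibres, had the widest relative spread of the 10 among controls. In nOIR p14 mice it had between 21.02 and 98.1 normalized reads (median 47.8), and in OIR p14 mice between 46.7 and 149.2 (median 91.0). At p17 controls had between 6.80 and 84.9 (median 32.6) and OIR mice between 63.5 and 120.1 (median 79.3). The groups overlapped at both ages, with 3 of 8 OIR mice above all controls at p17. On the log2 scale the OIR effect was 0.80 (SE 0.41, adjusted p = 0.332, limma with Benjamini-Hochberg adjustment) at p14 and 1.49 (SE 0.39, adjusted p = 0.00778) at p17. Over the alternatives and single mice left out, the effect at p17 lay between 1.09 and 1.78. The lowest control at p17, with 6.80 normalized reads, was mouse S2. The arithmetic means at p17 were 39.3 ± 28.9 in controls and 88.1 ± 22.2 in OIR mice (SD, n = 6 and 8).

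Loxl4 rose at p17, with 139 to 255 normalized reads in controls (median 197) and 202 to 646 in OIR mice (median 443). All OIR p17 mice but S8 lay above every control. At p14 controls had between 221 and 298 (median 258) and OIR mice between 252 and 433 (median 354), and 5 of 6 OIR mice were above all controls. The OIR effect in log2 units was 0.43 (SE 0.21, adjusted p = 0.307, limma with Benjamini-Hochberg adjustment) at p14 and 1.10 (SE 0.20, adjusted p = 0.000165) at p17. Within the chosen genes Loxl4 had the highest control level of any lysyl oxidase per length.

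Loxl1, which is needed for elastic fibre renewal, was the only gene of the 10 that was not called at either age. It had between 77.2 and 151.8 normalized reads in nOIR p14 mice (median 110.6), between 66.0 and 114 in OIR p14 mice (median 79.5), between 75.7 and 119 in nOIR p17 mice (median 107) and between 59.5 and 142 in OIR p17 mice (median 112). OIR mice overlapped controls at both ages, and at p17 they lay on both sides of the control range. Log2 fold changes were -0.33 (SE 0.21, adjusted p = 0.496, limma with Benjamini-Hochberg adjustment) at p14 and -0.05 (SE 0.20, adjusted p = 0.923) at p17.

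The lysyl hydroxylases rose by less at p17 than the other genes that rose, with small standard errors. Plod1, which hydroxylates lysines in the helical part of collagen, had between 1060 and 1211 normalized reads in nOIR p14 mice (median 1172) and between 1482 and 2059 in OIR p14 mice (median 1580). At p17 it had between 967 and 1202 in controls (median 1115) and between 1963 and 2394 in OIR mice (median 2146). The groups were apart at both ages, and OIR mice at p17 reached higher values than at p14. On the log2 scale the OIR effect was 0.51 (SE 0.08, adjusted p = 0.000133, limma with Benjamini-Hochberg adjustment) at p14 and 0.99 (SE 0.08, adjusted p = 1.04e-10) at p17, and these differed by 0.48 (SE 0.11, adjusted p = 0.0207). Within OIR mice Plod1 rose by 0.39 from p14 to p17 (SE 0.08, adjusted p = 0.00145).

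Plod2 acts on the telopeptide lysines whose hydroxylation leads to the stable crosslinks of fibrosis. It had between 309 and 403 normalized reads in nOIR p14 mice (median 367) and between 512 and 847 in OIR p14 mice (median 634). At p17 the values were between 363 and 437 (median 405) and between 570 and 990 (median 738). Every OIR mouse was above all controls of its age. The OIR effect in log2 units was 0.83 (SE 0.13, adjusted p = 0.000128, limma with Benjamini-Hochberg adjustment) at p14 and 0.92 (SE 0.13, adjusted p = 2.85e-06) at p17, with a difference of 0.09 (SE 0.18, adjusted p = 0.917).

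Plod3, which also transfers sugars to hydroxylysine and is needed for secretion of collagen IV, had the smallest of the increases at p17. It had between 463 and 591 normalized reads in nOIR p17 mice (median 536) and between 621 and 860 in OIR p17 mice (median 756), without overlap, and the log2 fold change was 0.47 (SE 0.13, adjusted p = 0.0151, limma with Benjamini-Hochberg adjustment). At p14 controls had between 529 and 678 (median 568.1) and OIR mice between 327 and 752 (median 661), and the log2 fold change was 0.06 (SE 0.14, adjusted p = 0.904). The low value came from OIR p14 mouse S1 alone, without which the log2 fold change was 0.24 (adjusted p = 0.203). Of the exon bases of Plod3, 11.7% are shared with Znhit1 on the other strand.

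**Figure D3:**
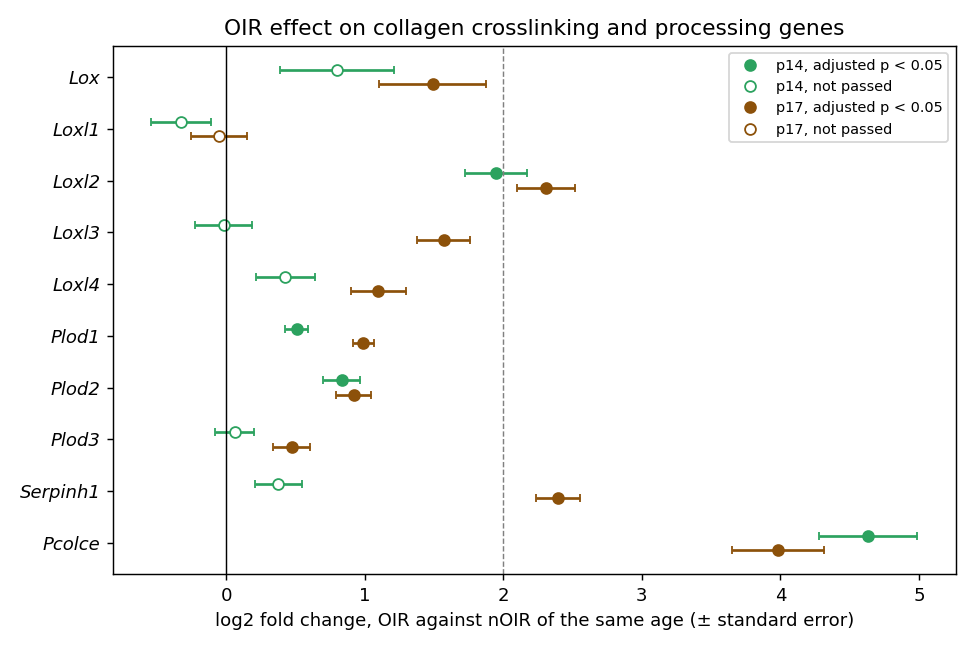
Log2 fold change of OIR against nOIR mice of the same age, with standard errors. Filled points passed an adjusted p of 0.05 in limma, open points did not, and the dashed line marks a log2 fold change of 2. Pcolce is farthest to the right at both ages, at 4.63 and 3.98, and Serpinh1 shows the widest gap between ages, from 0.38 to 2.39.

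Counted over the 10 genes, 4 rose at p14 (Loxl2, Plod1, Plod2 and Pcolce) and none fell by limma with Benjamini-Hochberg adjustment, while of all genes tested 3.18% rose and 2.91% fell. None fell at an unadjusted p under 0.05 either, at p14 or p17, or in edgeR or DESeq2. The median log2 fold change of the 10 was 0.47, beside 0.02 over all genes. At p17, 9 rose and none fell, against 7.39% and 5.12% of all genes, and the median was 1.29 beside -0.02. With the stricter limit of a log2 fold change above 2, the study's criterion for a DEG, 1 gene passed at p14 (Pcolce; 0.744% of all genes) and 3 at p17 (Pcolce, Serpinh1 and Loxl2; 1.9% of all genes). The effect was larger at p17 than at p14 for 3 genes, Serpinh1, Loxl3 and Plod1, against 1.43% of all genes tested, and smaller for none, against 0.147%. The difference itself exceeded 2 for Serpinh1 alone (0.383% of all genes), at 2.02, and lay on both sides of 2 over the alternatives and single mice left out, between 1.90 and 2.10.

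Every OIR mouse lay above every control for 4 of the 10 genes at p14, where 1.91% of all genes did so, and for 7 at p17, where 3.9% did. Such a separation fixes the exact permutation p (two-sided) at the smallest that the group sizes allow, 0.00216 with 6 against 6 mice and 0.000666 with 8 against 6, so that p adds nothing to it. Between ages, nOIR mice differed in 1 gene, Serpinh1, which was lower at p17 (0.158% of all genes were lower), and OIR mice in 3, Serpinh1, Loxl3 and Plod1, which were higher at p17 (4.11% of all genes were higher and 1.81% lower). These comparisons share mice with those between OIR and nOIR and are not independent of them.

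Other genes of the pathway were read from a list of 35 genes. At p14, 10 rose and 3 fell, with a median log2 fold change of 0.23, where 3.18% of all genes rose and 2.91% fell. At p17, 17 rose and 3 fell, with a median of 0.49, where 7.39% of all genes rose and 5.12% fell. Among the 10 genes listed as prolyl hydroxylases and related genes, 2 rose at p14 and 8 at p17. P4ha2, a catalytic subunit of collagen prolyl hydroxylase, had log2 fold changes of 0.64 (adjusted p = 0.000851, limma with Benjamini-Hochberg adjustment) and 1.203 (adjusted p = 4.21e-09). P3h4 rose by 0.55 (adjusted p = 0.011) at p14 and by 0.56 (adjusted p = 0.00212) at p17. P3h1 rose at p17 by 0.93 (adjusted p = 0.00249) and P4hb, the disulfide isomerase that pairs with the P4ha2 protein, by 0.44 (adjusted p = 0.000861). Of the 5 genes of lysine glycosylation and hydroxylase partners, Fkbp10 alone was called, with 0.65 (adjusted p = 0.00333) at p14 and 1.52 (adjusted p = 6.72e-10) at p17. Fkbp10 encodes the isomerase that works with the Plod2 enzyme.

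Among 8 procollagen proteinases and their regulators, Adamts2, which removes N-terminal propeptides, had log2 fold changes of 1.31 (adjusted p = 0.0166, limma with Benjamini-Hochberg adjustment) at p14 and 1.95 (adjusted p = 4.11e-05) at p17. Bmp1, whose product is the proteinase that the Pcolce protein assists, rose at p14 by 1.01 (adjusted p = 0.0195). At p17, Bmp1 ranged from 503 to 2304 normalized reads in OIR mice and from 667 to 879 in controls, with a log2 fold change of 0.72 (adjusted p = 0.0567). The effects on Bmp1 at the 2 ages differed by -0.28 (adjusted p = 0.849). Pcolce2, the paralog of Pcolce, went the other way at p17, with -0.71 (adjusted p = 0.00414). Tll2 was also lower at p17, at a mean of 2.09 normalized reads in OIR mice against 10.9 in controls, and 4 of 8 OIR mice were at 0.

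Of 12 partners in fibre assembly and crosslinking, 5 rose and 3 fell at p14 (3.18% and 2.91% of all genes), and 7 rose and 1 fell at p17 (7.39% and 5.12%). Tgm2, a transglutaminase that crosslinks matrix by another chemistry, rose by 2.38 (adjusted p = 1.71e-08, limma with Benjamini-Hochberg adjustment) and 3.05 (adjusted p = 4.24e-12). Fn1, encoding fibronectin, rose by 1.12 and 2.00 at the same ages, Emilin1 by 0.73 and 1.60, and Postn, whose product periostin helps to place Bmp1 protein and lysyl oxidase on the matrix, by 0.76 and 2.31. The 3 genes that fell at p14 were Fbln5 with -1.42 (adjusted p = 0.000116), Ltbp4 with -1.04 (adjusted p = 0.0242) and Eln, the gene of elastin, with -0.87 (adjusted p = 0.00697). Ltbp4 and Eln were named after their values were seen. At p17 Eln was still lower, with -0.63 (adjusted p = 0.0257).

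Of 12 collagen genes read as substrates, 9 rose at p17. All 5 fibrillar collagen genes in the list were higher at p17, where 7.39% of all genes were, and 2 at p14, where 3.18% were. Col1a1 went from 26.3 ± 14.1 to 162 ± 78.7 normalized reads at p14 and from 26.5 ± 12.6 to 535 ± 296 at p17 (mean ± SD in nOIR and OIR, n = 6, 6, 6 and 8). Its log2 fold change was 2.63 (adjusted p = 0.000473, limma with Benjamini-Hochberg adjustment) and then 4.25 (adjusted p = 2.33e-08). Col3a1, Col5a2 and Col5a1 rose by 2.48, 2.68 and 1.49 at p17. Of 7 basement membrane collagen genes, 2 rose at p14 and 4 at p17, the largest being Col4a1, with 0.94 (adjusted p = 0.00271) and 2.73 (adjusted p = 6.82e-12).

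**Figure D4:**
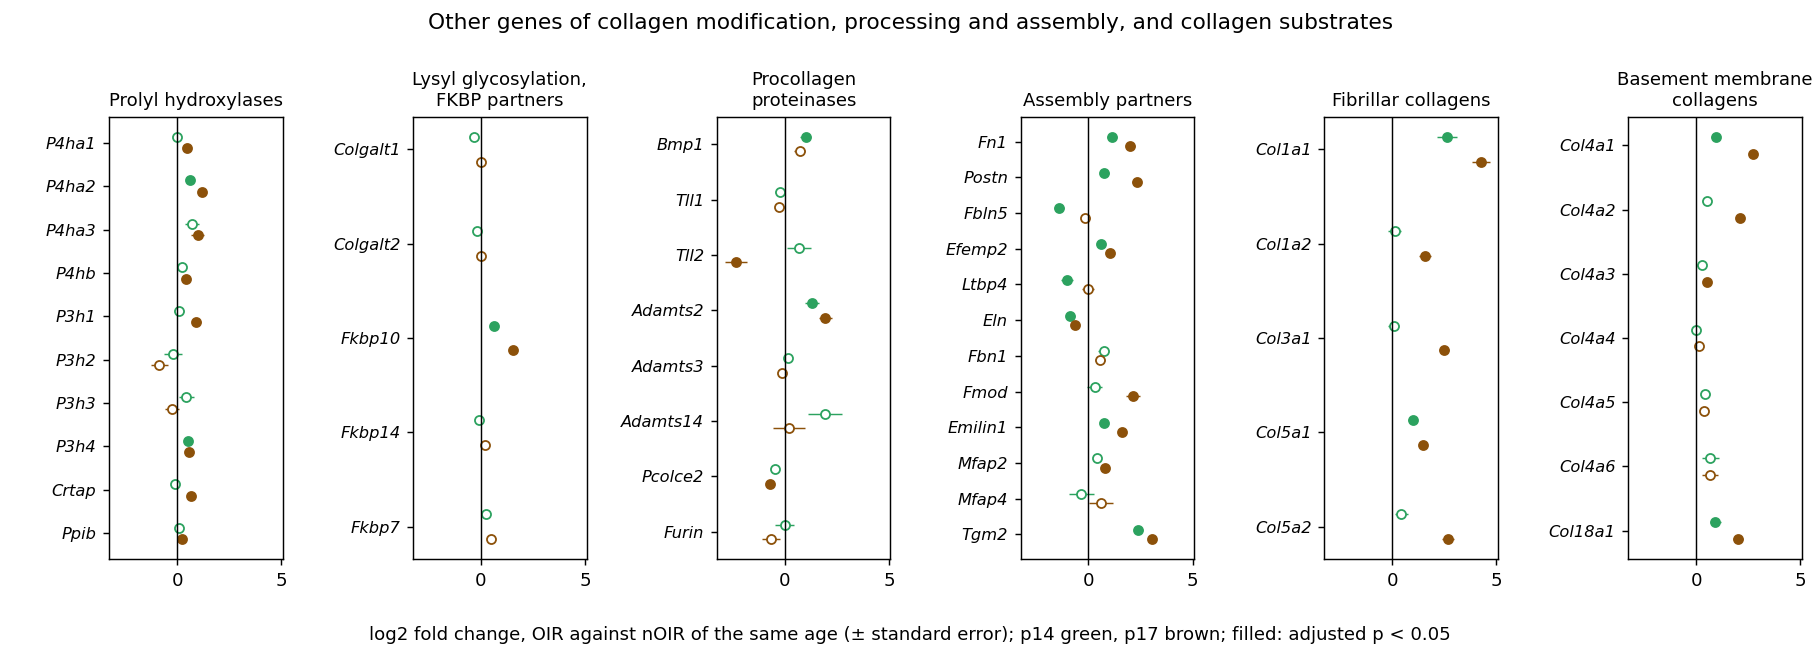
Log2 fold change of OIR against nOIR mice for 35 other genes of collagen modification, processing and assembly and for 12 collagen genes, with p14 in green, p17 in brown and standard errors as bars. Filled points passed an adjusted p of 0.05 in limma. At p17 all 5 fibrillar collagen genes are filled and to the right, and Eln, Pcolce2 and Tll2 are the filled points to the left.

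Cell type markers differed in level between groups, and in RNA of a whole tissue, fewer cells of a type and less RNA per cell cannot be told apart. At p17, 6 of 7 endothelial and all 7 mural cell markers were higher in OIR mice, where 7.39% of all genes were. The summed endothelial level was 5352 to 6731 normalized reads against 2370 to 2856 in controls, and the mural level 9086 to 14794 against 2560 to 3403. At p14, Pecam1 was higher and Cldn5 lower among the endothelial markers. The endothelial sum at this age was 1863 to 3167 in OIR mice and 2787 to 3185 in controls, and the mural sum 2137 to 4214 against 3067 to 3722. The mural markers that rose at p14 were Acta2, Tagln and Des, while Rgs5 fell.

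For the counts that follow, 3.18% of all genes rose and 2.91% fell at p14, and 7.39% rose and 5.12% fell at p17. Fibroblast markers summed to 781 to 1850 normalized reads in OIR p14 mice against 563 to 883, and to 1773 to 3353 in OIR p17 mice against 457 to 882. Col1a1 and Col3a1 stand in this list and among the fibrillar collagens above, and together with Pdgfra they make up most of the sum, so it is no separate measure from the collagen genes. At p17, 3 of the 6 rose (Col1a1, Col3a1 and Pdgfra), at p14 2, and Dcn, Lum and Dpt, which mark fibroblasts outside the retina, were not called at either age. At p17 their log2 fold changes were 1.68 for Dcn (adjusted p = 0.111, limma with Benjamini-Hochberg adjustment), 2.36 for Lum (adjusted p = 0.0562) and 1.01 for Dpt (adjusted p = 0.29), all with few reads. Lum was at 0 in 2 of 8 OIR p17 mice and 5 of 6 controls. Microglia and macrophage markers rose for 5 of 6 genes at p17 and for 1, Cd68, at p14, with sums of 1607 to 2473 in OIR p17 mice against 791 to 1035. Glial markers of Müller cells and astrocytes were mixed, with 2 higher (Gfap and Vim) and 3 lower at each age, and sums of 42447 to 53595 against 44071 to 57030 at p14. All 5 erythroid markers rose at p17 and none was called at p14, with sums of 1227 to 16980 in OIR p17 mice against 195 to 1191. None of 7 markers of pigment epithelium and choroid was called at either age, and the neuronal markers fell for 3 of 8 genes at p14 and 4 of 8 at p17. The part of these cell types in the changes of the collagen genes was not tested.

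Hypoxia-responsive genes, taken as a reference for the ischemic state, rose for 8 of 9 genes at both ages, where 3.18% and 7.39% of all genes rose. The median log2 fold change of the 9 was 1.06 at p14 and 1.49 at p17. Vegfa had log2 fold changes of 0.66 (adjusted p = 0.00168, limma with Benjamini-Hochberg adjustment) at p14 and 1.49 (adjusted p = 4.45e-10) at p17, and Slc2a1 of 0.36 and 0.73.

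Which genes behaved most like the 3 genes past the DEG limit was asked over the 26 mice, as the root-mean-square difference of log2 values after each gene was centred on its mean in controls, among the 19004 genes whose mean reached 10 normalized reads. For Pcolce the nearest genes were Gm16174 (0.583), Serpina3n (0.589), a serpin of reactive astrocytes, and Bcl3 (0.734). Gm16174 lies antisense to Bcl3 in GENCODE M21, so reads in any exon bases that they share cannot be told apart without strand. For Loxl2 they were Nes (0.403), the gene of nestin, Fblim1 (0.476) and Mcam (0.479), and for Serpinh1 they were Tpm4 (0.305), Gng11 (0.305) and Cd34 (0.314), a surface protein of endothelial cells.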

How the data were processed

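Whole retinas of 27 mice were sequenced. The authors checked reads with FastQC 0.73, aligned them with STAR 2.7.8a to GENCODE M28, counted them with featureCounts 2.0.1, removed genes without reads and deposited a signal of normalized reads (counts divided by 1 DESeq2 1.34 size factor per mouse). The deposited table also holds the authors' log2 fold changes and adjusted p-values, which were not used. Multiplying by 1 factor per mouse gave whole reads for 100% of values (tolerance 0.001).

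Limma 3.58.1 in R 4.3.3 (lmFit, eBayes with a trend) was fitted to log2(normalized reads + 1) of 26 mice in 4 groups, for 27137 genes with a mean of at least 1, with Benjamini-Hochberg adjustment over all of them. A gene rose or fell at an adjusted p under 0.05, and was a DEG if its log2 fold change was also above 2 or below -2. Fold changes are on the log2(value + 1) scale. Exact permutation tests were run in Python 3.11.15 with scipy 1.17.1. On simulated data for OIR p14 against nOIR p14 (26640 genes, 200 changed by 3 on the log2 scale), limma recovered 98% with 8 false calls. The changed genes were drawn from those with a mean of at least 10. Smaller changes, the size of most effects here, were not simulated. No library of a group repeated another (lowest chi-square 9.39 per degree of freedom). PCR copies were not removed, so reads are not independent molecules.

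The 10 genes and all lists were chosen with earlier results of these data known. Named are the 10 genes, up to 4 genes per pathway list and age with the smallest adjusted p, the 3 nearest genes of each DEG, Vegfa and Slc2a1, and markers a statement turns on. Alternatives were a pseudocount of 0.1, no filter, a mean of at least 10, inclusion of S4, the compared groups only, a replicate block, quantile normalization, rescaling to equal totals, DESeq2 1.42.0 and edgeR 4.0.16 on recovered reads, an adjusted p under 0.01, leaving out each mouse, and, added after the data were seen, log2 Cryaa as a covariate.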

Additional observations from a re-analysis of the deposited data

Results flagged for a closer look

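Single mice stood apart from the rest of their group in 3 of 40 gene and group pairs, where chance gives about 1 in 20. These were Loxl1 in nOIR p17 mouse S1 (75.7 normalized reads), Plod3 in OIR p14 mouse S1 (326.7) and Pcolce in nOIR p14 mouse S1 (52.4), each the lowest of its group.

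The OIR effect was larger at p17 than at p14, by a test of the difference itself, for Serpinh1 (by 2.02 on the log2 scale), Loxl3 (by 1.59) and Plod1 (by 0.48).

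The nOIR p14 mouse left out of the comparisons, S4, lay above all 6 nOIR p14 mice kept for 5 of the 10 genes. It had 165.6 normalized reads of Loxl2 (the others 48.1 to 102), 352 of Loxl4 (221 to 298), 1305 of Plod1 (1060 to 1211), 451 of Plod2 (309 to 403) and 107 of Pcolce (52.4 to 99.4). For Pcolce, Loxl2, Plod1 and Plod2 this was still below every OIR p14 mouse, and for Loxl4 it was within their range.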

How the results depend on the processing

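Counts of 9 genes higher at p17 and 4 at p14 stayed within 1.5 times under every alternative run. The DEG count at p14 was 1 to 2 when single mice were left out, Loxl2 passing the limit of 2 without nOIR p14 mice S2, S5 or S6 or OIR p14 mice S1 or S3. The difference between ages had 1 gene past a log2 value of 2, Serpinh1, and 0 with S4 included, with the replicate block, or without some single mice (0 to 1). Serpinh1 in nOIR mice between ages was not called at an adjusted p under 0.01 (0 genes) or without 3 of the mice (0 to 1). In the pathway list, 6 genes rather than 10 rose at p14 at an adjusted p under 0.01. Its higher DEG at p17 were 3, and 5 under the replicate block, rescaling, edgeR and DESeq2, and 3 to 5 when single mice were left out. The cause of these shifts was not tested.

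Values near 0 that were not called changed sign. Loxl3 at p14 was 0.025 after rescaling, 0.0084 with Cryaa as a covariate and between -0.155 and 0.072 when single mice were left out. Plod3 at p14 was between -0.0024 and 0.238 when single mice were left out. Loxl1 at p17 was 0.015 after rescaling, 0.0066 in edgeR, 0.0030 in DESeq2, and between -0.141 and 0.054 when single mice were left out. Loxl1 in nOIR mice between ages was 0.071 under the replicate block and between -0.131 and 0.062 without single mice, and Lox in OIR mice between ages was between -0.239 and 0.092.

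Mouse numbers did not pair the mice, since same-numbered deviations correlated between -0.192 and 0.253 in 11 pairs. Under the replicate block, Plod1 lost its difference between ages (0.45, adjusted p = 0.0948, limma). Loxl2 in OIR mice between ages was called under the block (0.71, adjusted p = 0.0403) and in DESeq2 (0.63, adjusted p = 0.0281). Over all genes, 862 rose and 790 fell at p14, and 1019 and 609 after rescaling to the same total. At p17 these were 2005 and 1390, and 2406 and 964. All 10 genes are among the 19004 with a mean of at least 10. Of those 19004, 890 rose and 864 fell at p14, and 1975 rose and 1500 fell at p17, larger shares than over all genes tested. Lox and Tll2 had few reads, and the part of depth in their spread was not tested.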
